A study of Mus musculus with 64 samples.

Results

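The response of Ndufs4 knockout hearts to pressure overload at week 2 was read from 8 of the 64 hearts of the series: the 4 KOTAC hearts and the 4 KOSH hearts whose labels give 2 weeks after surgery. All 8 mice were C57BL6 males operated at an age of 3 to 4 months. Both groups carried loxP sites in Ndufs4 and a CRE recombinase driven by the αMHC promoter, which is active in cardiomyocytes, so that the gene is removed in those cells while fibroblasts, vessels and blood cells of the heart keep it. KOTAC mice had the aorta narrowed (transverse aortic constriction, TAC), and KOSH mice had the same operation with no narrowing. Wild-type hearts of week 2 (WTTAC and WTSH, 4 each) and knockout hearts of weeks 1, 4 and 8 (KOTAC and KOSH, 4 each per week) were used for comparison. Each library holds the RNA of 1 heart. RNA was measured as FPKM, which counts sequenced fragments relative to the length of the transcript and the size of the library. FPKM carries no read counts, so the depth is unknown. In bulk tissue, fewer cells of a type and less RNA per cell cannot be told apart.

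TAC raises the pressure against which the left ventricle pumps. The ventricle grows, makes natriuretic peptides and other proteins of the embryonic heart again, lays down collagen between its myocytes, and draws less of its energy from fatty acids. Ndufs4 encodes an accessory subunit of complex I, the first enzyme of the respiratory chain, so that the knockout heart meets this load with a complex I that lacks this subunit in its myocytes. The comparison asks which genes a knockout heart changes 2 weeks into that load.

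Ndufs4 itself checks the labels. It was at 37.6, 22.4, 38.7 and 29.7 FPKM in the KOSH hearts and 20.3, 27.1, 43.8 and 33.8 FPKM in the KOTAC hearts, with hearts given here and below in the order 1, 2, 3 and 4. Wild-type sham hearts of the same week held 75.2 to 114 FPKM, and wild-type TAC hearts 97.9 to 188 FPKM. Every knockout heart of the week lay below every wild-type heart, with a log2 difference of -1.53 on the log2 scale among sham hearts and of -2.06 among TAC hearts (two-sided exact permutation test, p = 0.0286 for each, the smallest p that 4 hearts against 4 allow). TAC did not move it detectably in the knockout, with a log2 fold change of -0.06 (SE 0.19, adjusted p = 0.827) from limma. The gene lies on chromosome 13 from 115078003 to 115178302 (minus strand) of mm9.

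The 4 KOTAC libraries fall into pairs. In hearts 3 and 4, long transcripts read lower than short ones. The slope on the log2 scale was -0.21 and -0.19 for each doubling of length, against 0.04 and 0.04 in hearts 1 and 2. WTTAC hearts 3 and 4 of the same week showed the same slope (-0.21 and -0.21), and the other 60 libraries of the series lay between -0.07 and 0.07. Genes were divided by transcript length into 10 bins of nearly equal size. In the bin with the shortest transcripts (median 852 bases), the median gene of KOTAC hearts 3 and 4 was 0.45 and 0.42 above the KOSH mean on the log2 scale. In the bin with the longest (median 7666 bases) it was -0.35 and -0.32. Hearts 1 and 2 lay between -0.02 and 0.15 in all 10 bins. Across genes, Pearson's r was 0.981 between hearts 3 and 4 and 0.972 between hearts 1 and 2, but 0.921 to 0.934 between the pairs, a description in which genes are not replicates. The findings below are therefore also given without KOTAC hearts 3 and 4, which leaves 2 KOTAC hearts against 4 KOSH hearts.

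**Figure D1:**
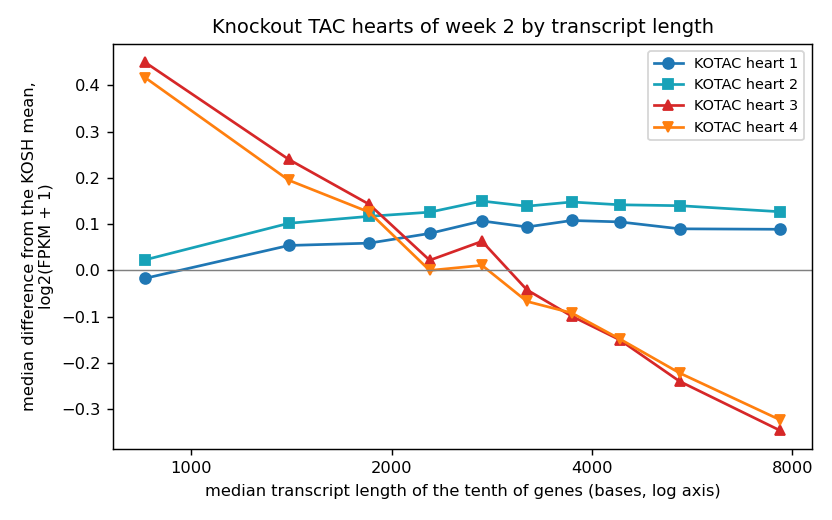
The median difference of each KOTAC heart of week 2 from the mean of the 4 KOSH hearts, in log2(FPKM + 1), is plotted for 10 bins of genes against the median transcript length of each bin (log axis). Hearts 3 and 4 fall from 0.45 and 0.42 to -0.35 and -0.32, while hearts 1 and 2 stay within 0.15 of 0.

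With all 8 hearts, 3353 of 13653 genes tested were higher in KOTAC (24.6%) and 2442 were lower (17.9%) at an adjusted p under 0.05 (limma on log2(FPKM + 1), Benjamini-Hochberg over all genes). The split depends on the scaling, with 3099 higher and 3343 lower after median-of-ratios scaling and 2892 higher and 3512 lower after quantile normalization. Without KOTAC hearts 3 and 4, 1496 genes were higher (11%) and 549 were lower (4.02%), or 1301 and 1034 after median-of-ratios scaling and 1116 and 1184 after quantile normalization. Fold changes called below those from hearts 1 and 2 come from this comparison. Of the genes called with all hearts, 1300 rises and 500 falls were also called in the same direction without hearts 3 and 4, and no gene was called in opposite directions. However, 272 of the falls and 26 of the rises had the opposite sign without those 2 hearts. A stricter group of genes was called both ways and also had 4 KOTAC values that did not overlap the 4 KOSH values: 1204 higher (8.82%) and 483 lower (3.54%). Genes named from this group are thus separated by its rule. Over all genes tested, called or not, the 4 KOTAC values lay above all 4 KOSH values for 20.3% and below them for 9.92%. The median gene moved by 0.05 with all hearts and by 0.10 without hearts 3 and 4, which is the level against which the medians of gene lists below are read. Rises and falls are given on the log2(FPKM + 1) scale unless called a ratio of means. The genes and lists were chosen with earlier results of these data known, so counts over lists describe them. Such counts are read beside the shares of all genes called higher and lower. These shares are 24.6% and 17.9% with all hearts, and 11% and 4.02% without hearts 3 and 4.

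Natriuretic peptides led the stress genes. Nppa, which encodes the atrial natriuretic peptide that a loaded ventricle makes again, measured 184, 402, 254 and 303 FPKM in the KOSH hearts and 3176, 3569, 4428 and 6707 FPKM in the KOTAC hearts. The lowest KOTAC heart was far above the highest KOSH heart. The mean rose 15.6-fold, and the log2 fold change was 3.96 (SE 0.67, adjusted p = 7.46e-06), or 3.61 from hearts 1 and 2 (adjusted p = 0.00228). Nppb, which encodes the brain natriuretic peptide, stood at 160.5, 525, 87.6 and 139 FPKM in the KOSH hearts and 775, 1116, 1843 and 1592 FPKM in the KOTAC hearts, with a log2 fold change of 2.81 (SE 0.51, adjusted p = 1.95e-05), or 2.37 from hearts 1 and 2 (adjusted p = 0.00694). KOSH heart 2 was the highest sham heart for both peptides, yet it stayed below every KOTAC heart. Xirp2, which encodes an actin-binding protein of the intercalated disc and Z-disc, was at 71.0, 103, 77.05 and 68.5 FPKM in the KOSH hearts and 312, 488, 306 and 292 FPKM in the KOTAC hearts and rose by 2.10 (SE 0.30, adjusted p = 6.12e-07) on the log2 scale. Rcan1, an inhibitor of calcineurin whose transcription calcineurin itself drives, measured 23.2, 30.4, 21.9 and 19.9 FPKM in the KOSH hearts and 96.8, 138, 68.5 and 71.5 FPKM in the KOTAC hearts and rose by 1.89 (SE 0.39, adjusted p = 0.000128). In both of these genes hearts 1 and 2 were at or above hearts 3 and 4, and the fold changes without the latter were 2.29 and 2.25.

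Ankrd1, a stretch-responsive ankyrin repeat protein of the sarcomere, stood at 610.4, 1461, 745 and 794 FPKM in the KOSH hearts and 2515, 2869, 1896 and 1505 FPKM in the KOTAC hearts. It passed the test with all hearts (1.32, SE 0.48, adjusted p = 0.0251) and missed it without hearts 3 and 4 (1.66, adjusted p = 0.0526), although its fold change was then larger. KOSH heart 2 again was the highest sham heart. Myh7, the slow β-myosin heavy chain of the embryonic ventricle, did not pass the test: it was at 582, 534, 599 and 351 FPKM in the KOSH hearts and 302, 567, 534 and 476 FPKM in the KOTAC hearts, with the groups overlapping and a log2 fold change of -0.15 (SE 0.36, adjusted p = 0.767). Myh6, the fast α-myosin heavy chain of the adult mouse ventricle, had lower values in every KOTAC heart (2328, 3030, 1497 and 1089 FPKM) than in any KOSH heart (4205, 3420, 4227 and 3561 FPKM), but with a log2 fold change of -1.06 (SE 1.83, adjusted p = 0.668) it did not pass, and it is listed at 0 in at least 1 sham heart of weeks 1 and 4, whose spread enters the test. Over the whole list of 21 natriuretic and mechanical stress genes tested, 10 rose and 2 fell, with a median log2 fold change of 0.69. Without hearts 3 and 4 the counts were 9 and 0 and the median 1.11.

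A pair of promoters of this group is shown because both genes hold, just before their start, the M-CAT motif that TEAD factors bind in cardiac genes. Each run is the 250 bases before the RefSeq start (GRCm38.p6) on the strand of the gene, with the motif (CATTCC on either strand) in capitals. Nppb covers chr4:147985650-147985899 on the plus strand and Ankrd1 chr19:36119845-36120094 on the minus strand.
Nppb: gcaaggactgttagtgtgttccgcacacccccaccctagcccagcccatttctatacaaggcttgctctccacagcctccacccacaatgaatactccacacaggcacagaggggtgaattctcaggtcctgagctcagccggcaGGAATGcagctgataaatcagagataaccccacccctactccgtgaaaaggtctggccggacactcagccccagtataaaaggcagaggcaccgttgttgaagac
Ankrd1: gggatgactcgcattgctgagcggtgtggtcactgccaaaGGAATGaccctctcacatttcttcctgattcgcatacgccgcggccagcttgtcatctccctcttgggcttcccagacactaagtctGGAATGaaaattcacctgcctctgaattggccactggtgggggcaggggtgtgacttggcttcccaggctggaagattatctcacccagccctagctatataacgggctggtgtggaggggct
Nppb holds 1 match, which begins 105 bases before the start. Ankrd1 holds 2, which begin 210 and 123 bases before it. The motif was in the window of 7 of the 20 list members that matched by symbol (of 22 listed) and of 14.4% of all 27025 genes with a window. A match describes the letters and is not evidence of binding.

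Extracellular matrix genes led the rises. Of 22 collagen chains tested, 21 rose and 0 fell with all hearts (median 2.08 on the log2 scale), and 20 rose without KOTAC hearts 3 and 4 (median 2.15). In the stricter group were 19 collagens, which were called with either set of hearts and did not overlap between groups. Fibrillar Col3a1 measured 24.6, 22.8, 13.1 and 11.9 FPKM in the KOSH hearts and 166, 212, 166 and 193 FPKM in the KOTAC hearts, a 10.2-fold rise of the mean with a log2 fold change of 3.33 (SE 0.43, adjusted p = 7.88e-08). Col1a1, the main chain of type I collagen, stood at 12.8, 14.4, 8.09 and 9.36 FPKM in the KOSH hearts and 76.5, 102, 79.0 and 87.6 FPKM in the KOTAC hearts and rose by 2.87 (SE 0.43, adjusted p = 1.15e-06). The 4 KOTAC hearts were close to each other for both, and the fold changes from hearts 1 and 2 were 3.37 and 2.91. Basement membrane Col4a1 was at 49.5, 47.8, 35.2 and 32.3 FPKM in the KOSH hearts and 209, 184, 127 and 169 FPKM in the KOTAC hearts and rose by 2.04 (SE 0.24, adjusted p = 1.51e-08). Col5a3, a minor chain of type V collagen, measured 1.83, 1.14, 0.872 and 0.767 FPKM in the KOSH hearts and 8.71, 10.1, 7.68 and 9.62 FPKM in the KOTAC hearts and rose by 2.24 (SE 0.25, adjusted p = 5.16e-09). Col15a1, the core of a collagen of the basement membrane zone, stood at 21.9, 17.6, 11.0 and 11.6 FPKM in the KOSH hearts and 86.3, 91.7, 88.0 and 139.7 FPKM in the KOTAC hearts and rose by 2.66 (SE 0.32, adjusted p = 1.51e-08). Without hearts 3 and 4 these 3 chains rose by 2.24, 2.29 and 2.50.

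Postn, which encodes the matricellular protein periostin of activated fibroblasts, had the largest rise among the genes of the stricter group. It was at 9.09, 10.4, 6.87 and 12.6 FPKM in the KOSH hearts and 209.9, 232, 254 and 370.5 FPKM in the KOTAC hearts, a 27.4-fold rise of the mean, with a log2 fold change of 4.63 (SE 0.53, adjusted p = 9.4e-09), or 4.396 from hearts 1 and 2 (adjusted p = 1.52e-05). The gene lies on chromosome 3 from 54165031 to 54194961 (plus strand) of mm9. Thbs4, a thrombospondin of the matrix, measured 0.990, 1.29, 1.04 and 1.11 FPKM in the KOSH hearts and 34.2, 42.0, 20 and 45.4 FPKM in the KOTAC hearts, so that every KOTAC heart was well above every KOSH heart. Thbs4 rose, with a log2 fold change of 4.05 (SE 0.60, adjusted p = 9.14e-07), or 4.21 from hearts 1 and 2 (adjusted p = 0.00013). Cilp, the cartilage intermediate layer protein, stood at 1.09, 1.09, 0.541 and 1.61 FPKM in the KOSH hearts and 21.5, 50.2, 25.3 and 43.3 FPKM in the KOTAC hearts. Cilp rose, with a log2 fold change of 4.05 (SE 0.60, adjusted p = 1.04e-06), or 4.05 from hearts 1 and 2 (adjusted p = 0.000266). Timp1, an inhibitor of matrix metalloproteinases, was at 1.49, 2.15, 1.13 and 1.10 FPKM in the KOSH hearts and 44.4, 19.8, 30.3 and 71.2 FPKM in the KOTAC hearts and was lowest among KOTAC hearts in heart 2. Timp1 rose, with a log2 fold change of 3.97 (SE 0.62, adjusted p = 2.09e-06), or 3.66 from hearts 1 and 2 (adjusted p = 0.000875). Mfap5, a protein of elastic microfibrils, measured 12.0, 11.6, 8.73 and 12.1 FPKM in the KOSH hearts and 119, 103, 145 and 189.7 FPKM in the KOTAC hearts. Mfap5 rose, with a log2 fold change of 3.51 (SE 0.37, adjusted p = 4.14e-09), or 3.22 from hearts 1 and 2 (adjusted p = 7.37e-06). The other large rises were Ltbp2, a binding protein related to those of latent TGF-β, at 3.53, Mfap4 at 3.42, Serpina3n, a serine protease inhibitor, at 3.01 and Adamtsl2, a secreted ADAMTS-like glycoprotein, at 2.98. Without KOTAC hearts 3 and 4 these 4 rose by 3.42, 3.06, 2.68 and 2.46, all with an adjusted p under 0.05.

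Most of the called genes around the matrix also rose. Of 32 matricellular proteins and matrix glycoproteins, 27 rose and 0 fell (median 1.73), with 20 rising without hearts 3 and 4 (median 1.499). Of 20 collagen processing and crosslinking genes, 16 rose and 0 fell, and 13 rose without those hearts. Loxl2, a lysyl oxidase that crosslinks collagen, stood at 3.79, 2.86, 1.71 and 1.96 FPKM in the KOSH hearts and 25.4, 20.1, 10.2 and 15.5 FPKM in the KOTAC hearts and rose by 2.36 (SE 0.30, adjusted p = 6.25e-08). Of 19 genes of TGF-β and activin signalling, 10 rose and 1 fell, and 9 rose without hearts 3 and 4. Fstl1, a secreted follistatin-like protein, was at 16.7, 16.4, 11.4 and 13.8 FPKM in the KOSH hearts and 97.0, 104, 113 and 149.9 FPKM in the KOTAC hearts and rose by 2.90 (SE 0.31, adjusted p = 4.14e-09). Tgfb1 itself measured 7.83, 8.79, 6.86 and 5.80 FPKM in the KOSH hearts and 14.8, 13.1, 21.6 and 25.0 FPKM in the KOTAC hearts and rose by 1.21 (SE 0.18, adjusted p = 1.66e-06). Meox1, a homeobox factor of activated fibroblasts, stood at 3.10, 3.73, 2.56 and 2.78 FPKM in the KOSH hearts and 21.99, 21.7, 27.97 and 45.8 FPKM in the KOTAC hearts and rose by 2.85 (SE 0.38, adjusted p = 9.73e-08). From hearts 1 and 2 alone, Loxl2, Fstl1, Tgfb1 and Meox1 rose by 2.76, 2.71, 0.86 and 2.51. Of 18 matrix proteases and inhibitors 13 rose and 1 fell (Mmp15, a membrane-type metalloproteinase, log2 fold change -0.48, adjusted p = 0.0084, or -0.32 from hearts 1 and 2, adjusted p = 0.234). Of 13 matrix proteoglycans 10 rose and 1 fell (Gpc1, a cell surface glypican, log2 fold change -0.77, adjusted p = 0.00202, or -0.19 from hearts 1 and 2, adjusted p = 0.594). Without hearts 3 and 4, 9 and 5 members of these lists rose and none fell.

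**Figure D2:**
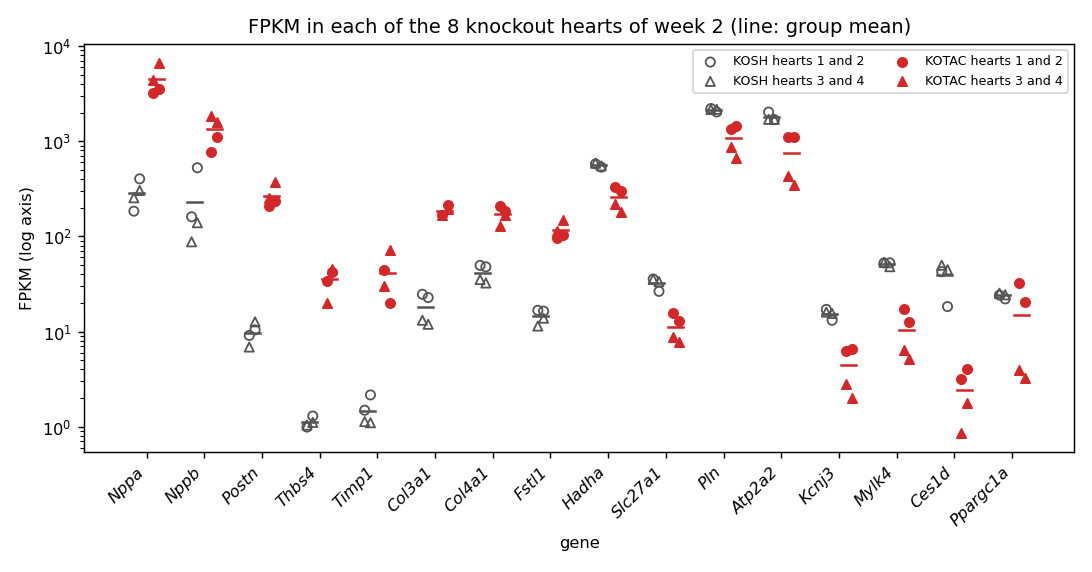
FPKM of 16 genes (log axis) in each of the 8 knockout hearts of week 2, with open symbols for KOSH, filled symbols for KOTAC, circles for hearts 1 and 2, triangles for hearts 3 and 4 and a line at each group mean. The matrix and natriuretic genes rise in all 4 KOTAC hearts (Postn from a mean of 9.75 to 267 FPKM), whereas for Atp2a2 and Ppargc1a the triangles lie far below the circles.

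The largest falls in the stricter group were found in genes of several kinds, with Ces1d, Inmt and Mylk4 at the head. Ces1d, a carboxylesterase that hydrolyses triglyceride, was at 42.5, 18.3, 49.7 and 44.6 FPKM in the KOSH hearts and 3.18, 4.01, 0.849 and 1.76 FPKM in the KOTAC hearts, a 15.8-fold lower mean, with a log2 fold change of -3.54 (SE 0.54, adjusted p = 1.66e-06), or -3.03 from hearts 1 and 2 (adjusted p = 0.00147). Inmt, an indolethylamine N-methyltransferase, measured 10.1, 11.2, 12.3 and 13.7 FPKM in the KOSH hearts and 0.178, 0.949, 4.52 and 0.659 FPKM in the KOTAC hearts. Inmt fell, with a log2 fold change of -2.57 (SE 0.59, adjusted p = 0.000509), or -3.07 from hearts 1 and 2 (adjusted p = 0.00247). Mylk4, a kinase of the myosin light chain kinase family, stood at 52.6, 52.7, 53.2 and 48.0 FPKM in the KOSH hearts and 17.4, 12.7, 6.42 and 5.13 FPKM in the KOTAC hearts. Mylk4 fell, with a log2 fold change of -2.35 (SE 0.33, adjusted p = 4.59e-07), or -1.73 from hearts 1 and 2 (adjusted p = 0.00184). All 4 KOTAC values of these genes were below all 4 KOSH values, which the stricter group requires. Hearts 3 and 4 were the lowest for Ces1d and Mylk4. Pla2g5, a secreted phospholipase A2, fell by 2.09 on the log2 scale, and Penk, the precursor of enkephalin peptides, fell by 2.09. Pfkfb1, which sets the level of the glycolytic activator fructose 2,6-bisphosphate, was at 7.28, 4.82, 7.53 and 6.32 FPKM in the KOSH hearts and 1.10, 0.731, 0.893 and 0.486 FPKM in the KOTAC hearts and fell by 2.05. Its log2 fold change from hearts 1 and 2 was -1.96. Acot1, an acyl-CoA thioesterase, measured 10.4, 7.16, 15.0 and 9.93 FPKM in the KOSH hearts and 3.04, 3.03, 1.43 and 1.35 FPKM in the KOTAC hearts and fell by 1.86. From hearts 1 and 2 its log2 fold change was -1.485. Fgf13, Asb15, Fbp2 (a muscle fructose bisphosphatase), A930018M24Rik and 9030617O03Rik fell by 1.82, 1.77, 1.75, 1.80 and 1.79. The fall of Fbp2 was nearly the same without hearts 3 and 4 (-1.74), while those of Fgf13 (-0.90) and Asb15 (-0.87) were then smaller. All genes named in this paragraph were also called lower without those hearts, as the stricter group requires.

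Most genes of fatty acid use fell, with or without hearts 3 and 4. Of 23 genes of β-oxidation, 20 fell and 0 rose (median -0.86), and 15 fell without those hearts (median -0.61). Hadha, the α-subunit of the mitochondrial trifunctional protein, stood at 577, 534, 587 and 550.3 FPKM in the KOSH hearts and 328, 303, 218 and 182 FPKM in the KOTAC hearts. Hadha fell, with a log2 fold change of -1.16 (SE 0.15, adjusted p = 6.22e-08), or -0.83 from hearts 1 and 2 (adjusted p = 0.000487). Acadm, the medium-chain acyl-CoA dehydrogenase, was at 434, 397, 461 and 404 FPKM in the KOSH hearts and 257, 252, 172 and 118 FPKM in the KOTAC hearts. Acadm fell, with a log2 fold change of -1.15 (SE 0.16, adjusted p = 3.61e-07), or -0.73 from hearts 1 and 2 (adjusted p = 0.00215). In both genes hearts 1 and 2 lay between the sham hearts and hearts 3 and 4. Of 26 genes of fatty acid uptake, activation and the carnitine shuttle, 17 fell and 2 rose, against 10 and 2 without hearts 3 and 4. Slc27a1, a fatty acid transport protein, measured 35.6, 26.4, 35.5 and 33.4 FPKM in the KOSH hearts and 15.5, 12.8, 8.71 and 7.78 FPKM in the KOTAC hearts. Slc27a1 fell, with a log2 fold change of -1.50 (SE 0.16, adjusted p = 4.14e-09), or -1.15 from hearts 1 and 2 (adjusted p = 1.56e-05). Pnpla2, the triglyceride lipase of the lipid droplet, stood at 227, 201, 259 and 218 FPKM in the KOSH hearts and 163, 136, 94.6 and 78.1 FPKM in the KOTAC hearts. Pnpla2 fell, with a log2 fold change of -0.99 (SE 0.13, adjusted p = 7.43e-08), or -0.60 from hearts 1 and 2 (adjusted p = 0.000887). Cpt1b, the carnitine palmitoyltransferase of muscle that admits long chains to mitochondria, was at 205, 207, 216 and 198 FPKM in the KOSH hearts and 173, 174, 120.2 and 106 FPKM in the KOTAC hearts and passed with all hearts (-0.56, SE 0.13, adjusted p = 0.000756) but not without hearts 3 and 4 (-0.25, adjusted p = 0.261).

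Genes for the use of branched-chain amino acids and ketone bodies also fell. Of 24 genes, 20 fell and 0 rose (median -0.60), and 14 fell without hearts 3 and 4 (median -0.50). Bckdha, a subunit of the branched-chain ketoacid dehydrogenase, measured 137, 128, 161 and 131 FPKM in the KOSH hearts and 73.7, 71.3, 111 and 88.2 FPKM in the KOTAC hearts, and it was lower in hearts 1 and 2 than in hearts 3 and 4. Bckdha fell, with a log2 fold change of -0.71 (SE 0.13, adjusted p = 1.96e-05), or -0.93 from hearts 1 and 2 (adjusted p = 2.64e-05). Dbt, the core of the same complex, stood at 22.04, 17.4, 21.8 and 20.4 FPKM in the KOSH hearts and 11.8, 11.5, 5.52 and 4.72 FPKM in the KOTAC hearts. Dbt fell, with a log2 fold change of -1.28 (SE 0.17, adjusted p = 1.72e-07), or -0.75 from hearts 1 and 2 (adjusted p = 0.00237). Ppm1k, the phosphatase that activates this complex, was at 20.8, 13.2, 19.1 and 17.8 FPKM in the KOSH hearts and 7.85, 7.89, 4.87 and 3.88 FPKM in the KOTAC hearts. Ppm1k fell, with a log2 fold change of -1.42 (SE 0.19, adjusted p = 1.35e-07), or -1.06 from hearts 1 and 2 (adjusted p = 0.00083). Ivd, isovaleryl-CoA dehydrogenase of leucine breakdown, measured 149, 113, 142 and 129.7 FPKM in the KOSH hearts and 70.1, 79.4, 34.7 and 26.5 FPKM in the KOTAC hearts. Ivd fell, with a log2 fold change of -1.46 (SE 0.21, adjusted p = 4.28e-07), or -0.82 from hearts 1 and 2 (adjusted p = 0.00435). Of 28 genes of pyruvate dehydrogenase and the TCA cycle, 20 fell and 0 rose with all hearts, but 7 fell without hearts 3 and 4, and the median moved from -0.59 to -0.32. Idh3g, a subunit of the NAD-dependent isocitrate dehydrogenase, stood at 330.3, 321, 353 and 302 FPKM in the KOSH hearts and 216, 229.8, 252 and 214 FPKM in the KOTAC hearts, at nearly the same level in the 4 KOTAC hearts. Idh3g fell, with a log2 fold change of -0.52 (SE 0.08, adjusted p = 1.33e-06), or -0.55 from hearts 1 and 2 (adjusted p = 9.09e-05). Sdha, the flavoprotein of complex II, was at 504, 455, 487 and 458 FPKM in the KOSH hearts and 300.5, 321, 203 and 172 FPKM in the KOTAC hearts. Sdha fell, with a log2 fold change of -0.98 (SE 0.13, adjusted p = 1.69e-07), or -0.61 from hearts 1 and 2 (adjusted p = 0.00174).

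**Figure D3:**
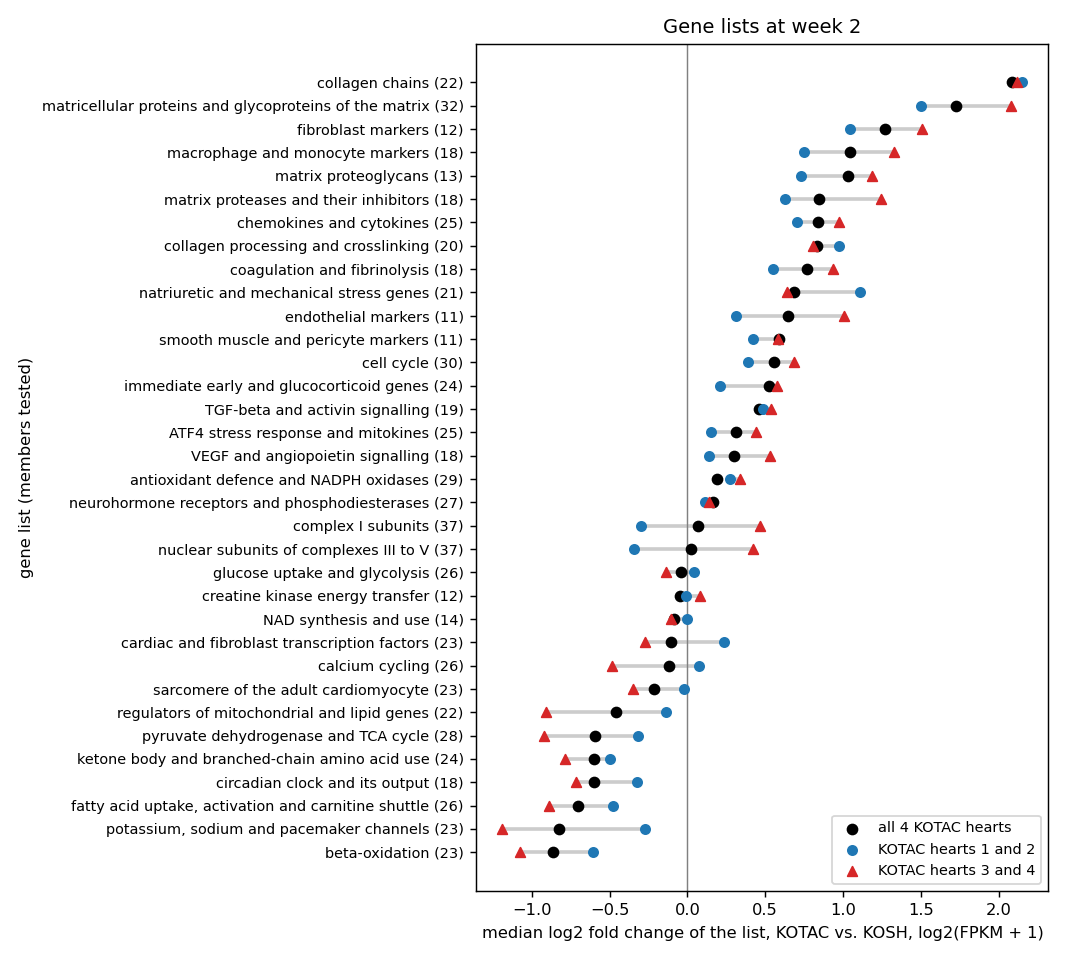
Median log2 fold change of each gene list with at least 10 members tested, KOTAC vs. KOSH at week 2, for all 4 KOTAC hearts (black), hearts 1 and 2 (blue circles) and hearts 3 and 4 (red triangles), each against the 4 KOSH hearts. Collagens stay near 2.08 for either pair, while the lists of complex I and complexes III to V lie on opposite sides of 0 for the 2 pairs.

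The respiratory chain differed between the pairs of KOTAC hearts. With all 8 hearts, 1 of 37 subunits of complex I rose and 2 fell, with a median of 0.07. The median was -0.30 for hearts 1 and 2 against KOSH and 0.47 for hearts 3 and 4. The fold change was below 0 for 36 of the 37 subunits in hearts 1 and 2, and for 4 in hearts 3 and 4. Few single subunits passed the test, with 2 lower and 0 higher without hearts 3 and 4. The median transcript of the list was 971 bases long. With the length trend removed from each library, 1 rose and 6 fell. The median with all hearts was then -0.07, and it was -0.001 after median-of-ratios scaling and -0.06 after quantile normalization. In knockout hearts of weeks 1, 4 and 8, whose libraries lack the length trend, the medians of the list were -0.34, -0.17 and -0.24. In wild-type hearts of week 2, where WTTAC hearts 3 and 4 carry the trend, the median was 0.39. The part of transcript length in the difference between the pairs was not tested. Ndufs1, the largest subunit of complex I, measured 246, 238, 260.2 and 247 FPKM in the KOSH hearts and 172, 183, 104 and 79.9 FPKM in the KOTAC hearts, and fell with all hearts (-0.96, SE 0.16, adjusted p = 6.42e-06) and without hearts 3 and 4 (-0.48, adjusted p = 0.0305). Ndufv1, which binds NADH, stood at 429, 417, 485 and 414 FPKM in the KOSH hearts and 302, 320.2, 435 and 445 FPKM in the KOTAC hearts. It did not pass with all hearts (-0.23, adjusted p = 0.115) and fell without hearts 3 and 4 (-0.48, adjusted p = 0.0129). Ndufb3, an accessory subunit, was at 107, 122, 122 and 101 FPKM in the KOSH hearts and 109, 118, 213 and 203 FPKM in the KOTAC hearts, and its call with all hearts (0.44, adjusted p = 0.0285) did not hold without hearts 3 and 4 (0.002).

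Nuclear subunits of complexes III to V divided between the pairs of hearts as complex I did. Of 37 tested, 2 rose and 3 fell with all hearts (median 0.02), and 0 rose and 5 fell without hearts 3 and 4 (median -0.34). With the length trend removed, 1 rose and 12 fell, and after quantile normalization 2 rose and 9 fell. At weeks 1, 4 and 8 the medians were -0.29, -0.17 and -0.23, and in wild-type hearts of week 2 the median was 0.305. Atp5a1, the α-subunit of the ATP synthase, measured 1752, 1655, 1782 and 1624 FPKM in the KOSH hearts and 1207, 1218, 1378 and 1130 FPKM in the KOTAC hearts and fell by nearly the same amount with all hearts (-0.47, SE 0.08, adjusted p = 9.33e-06) and without hearts 3 and 4 (-0.49, adjusted p = 0.000413). Uqcrc1, a core protein of complex III, stood at 691, 666, 755 and 678 FPKM in the KOSH hearts and 516, 498, 623 and 546 FPKM in the KOTAC hearts. Uqcrc1 fell, with a log2 fold change of -0.36 (SE 0.11, adjusted p = 0.00822), or -0.46 from hearts 1 and 2 (adjusted p = 0.0144). Cox6a1, a small subunit of cytochrome oxidase, was at 112, 139, 118 and 113 FPKM in the KOSH hearts and 129, 128, 214 and 222 FPKM in the KOTAC hearts, and was called higher with all hearts (0.47, adjusted p = 0.007) but not without hearts 3 and 4 (0.10, adjusted p = 0.732).

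**Figure D4:**
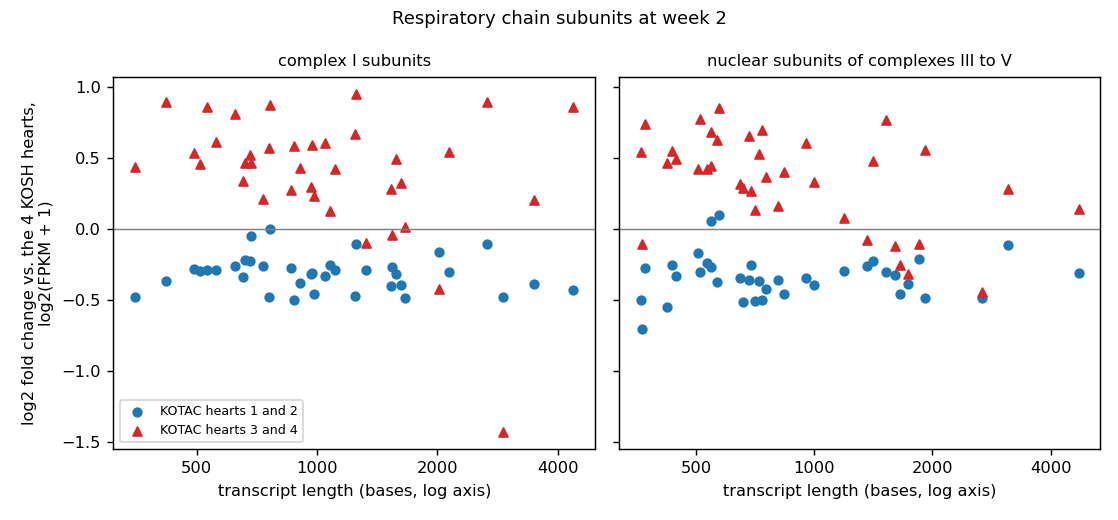
Log2 fold change against the 4 KOSH hearts (vertical) and transcript length in bases (log axis, horizontal) for each subunit of complex I and each nuclear subunit of complexes III to V, as the mean of KOTAC hearts 1 and 2 (blue circles) or of hearts 3 and 4 (red triangles). The medians are -0.30 and 0.47 for complex I and -0.34 and 0.42 for complexes III to V.

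The calls among regulators of these genes rested largely on hearts 3 and 4. Of 22 regulators of mitochondrial and lipid genes, 17 fell and 1 rose with all hearts, but 1 fell and 0 rose without hearts 3 and 4, with medians of -0.46 and -0.14. With the length trend removed and all hearts kept, 18 fell and 1 rose (median -0.47). Ppargc1a, the coactivator of mitochondrial biogenesis, measured 24.1, 22.01, 25.3 and 24.3 FPKM in the KOSH hearts and 32.5, 20.3, 3.94 and 3.22 FPKM in the KOTAC hearts. Heart 1 was above every sham heart, heart 2 just below the lowest, and hearts 3 and 4 far below. The call with all hearts (-1.17, SE 0.46, adjusted p = 0.0341) turned to 0.10 (adjusted p = 0.923) without them. Ppara, the nuclear receptor that senses fatty acids, stood at 12.7, 8.32, 11.1 and 12.98 FPKM in the KOSH hearts and 8.398, 8.31, 1.401 and 0.626 FPKM in the KOTAC hearts. Klf15, a factor of cardiac lipid metabolism, was at 17.9, 14.0, 27.4 and 22.9 FPKM in the KOSH hearts and 16.9, 10.3, 6.34 and 3.13 FPKM in the KOTAC hearts. Both were called lower with all hearts (log2 fold changes -1.50 and -1.24) and not without hearts 3 and 4 (-0.37 and -0.56).

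Most of the called genes of calcium cycling and ion channels were lower in KOTAC, and further below the sham level in hearts 3 and 4 than in hearts 1 and 2. The median transcripts of these lists were long, at 4300 and 4221 bases, and long transcripts read lower in hearts 3 and 4. Pln, which encodes phospholamban, the brake on the calcium pump of the sarcoplasmic reticulum, measured 2204, 2026, 2154 and 2164 FPKM in the KOSH hearts and 1351, 1429, 878 and 669 FPKM in the KOTAC hearts. Pln fell, with a log2 fold change of -1.05 (SE 0.14, adjusted p = 2.59e-07), or -0.62 from hearts 1 and 2 (adjusted p = 0.00229). Atp2a2, the pump itself, stood at 2023, 1682, 1697 and 1696 FPKM in the KOSH hearts and 1107, 1112, 435 and 345 FPKM in the KOTAC hearts, with every KOTAC heart below every KOSH heart. Atp2a2 fell, with a log2 fold change of -1.43 (SE 0.25, adjusted p = 1e-05), or -0.67 from hearts 1 and 2 (adjusted p = 0.0516). Hrc, a calcium-binding protein of that store, was at 393, 365, 360.5 and 332 FPKM in the KOSH hearts and 195, 203, 153 and 132 FPKM in the KOTAC hearts. Hrc fell, with a log2 fold change of -1.10 (SE 0.19, adjusted p = 7.01e-06), or -0.86 from hearts 1 and 2 (adjusted p = 0.00621). Camk2a, a calmodulin-dependent kinase, measured 19.1, 17.4, 19.0 and 20.6 FPKM in the KOSH hearts and 10.3, 9.66, 2.75 and 2.42 FPKM in the KOTAC hearts. Camk2a fell, with a log2 fold change of -1.67 (SE 0.26, adjusted p = 2.38e-06), or -0.87 from hearts 1 and 2 (adjusted p = 0.0182). Of 26 genes of calcium cycling, 5 rose and 11 fell with all hearts, and 0 rose and 3 fell without hearts 3 and 4, with the median moving from -0.12 to 0.07. Of 23 potassium, sodium and pacemaker channel genes, 17 fell and 2 rose with all hearts (median -0.82), and 6 fell without hearts 3 and 4 (median -0.27). With the length trend removed, 6 genes of calcium cycling rose and 10 fell, and 2 channel genes rose and 17 fell. Kcnj3 and Kcnj5 encode the 2 subunits of the acetylcholine-gated potassium channel. Kcnj3 stood at 17.1, 13.1, 16.0 and 15.5 FPKM in the KOSH hearts and 6.26, 6.55, 2.81 and 2.02 FPKM in the KOTAC hearts. Kcnj3 fell, with a log2 fold change of -1.71 (SE 0.26, adjusted p = 1.1e-06), or -1.14 from hearts 1 and 2 (adjusted p = 0.00477). Kcnj5 was at 16.2, 16.4, 14.2 and 14.7 FPKM in the KOSH hearts and 6.54, 7.82, 2.62 and 2.39 FPKM in the KOTAC hearts. Kcnj5 fell, with a log2 fold change of -1.61 (SE 0.20, adjusted p = 4.69e-08), or -1.003 from hearts 1 and 2 (adjusted p = 0.000696). Abcc9, the sulfonylurea receptor of the ATP-sensitive potassium channel, measured 63.4, 46.7, 57.1 and 58.4 FPKM in the KOSH hearts and 33.0, 32.6, 14.7 and 15.8 FPKM in the KOTAC hearts. Abcc9 fell, with a log2 fold change of -1.28 (SE 0.20, adjusted p = 2.07e-06), or -0.76 from hearts 1 and 2 (adjusted p = 0.0116). The 4 KOTAC values of these channel genes lay below all 4 KOSH values, as did those of 9.92% of all genes.

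Of 26 genes of glucose uptake and glycolysis, 8 rose and 8 fell, beside 24.6% and 17.9% of all genes. Without hearts 3 and 4, 2 rose and 6 fell, beside 11% and 4.02% of all genes. Slc2a4, the insulin-sensitive glucose transporter, stood at 176, 168, 168 and 163 FPKM in the KOSH hearts and 111, 111, 73.4 and 59.4 FPKM in the KOTAC hearts. Slc2a4 fell, with a log2 fold change of -0.97 (SE 0.14, adjusted p = 5.32e-07), or -0.60 from hearts 1 and 2 (adjusted p = 0.00368). Pfkm, the phosphofructokinase of muscle, was at 322, 283, 334 and 315 FPKM in the KOSH hearts and 209, 216, 146 and 115 FPKM in the KOTAC hearts. Pfkm fell, with a log2 fold change of -0.91 (SE 0.13, adjusted p = 5.66e-07), or -0.56 from hearts 1 and 2 (adjusted p = 0.00377). Pfkp, the platelet-type phosphofructokinase, measured 11.8, 18.6, 15.4 and 12.96 FPKM in the KOSH hearts and 45.2, 43.4, 47.2 and 45.6 FPKM in the KOTAC hearts. Pfkp rose, with a log2 fold change of 1.58 (SE 0.27, adjusted p = 6.54e-06), or 1.55 from hearts 1 and 2 (adjusted p = 0.0011). The 4 KOTAC hearts lay close together for Pfkp. Among genes of NAD, the cofactor that complex I regenerates, 4 of 14 rose and 5 fell, beside 24.6% and 17.9% of all genes. Leaving out hearts 3 and 4, 3 rose and 3 fell, beside 11% and 4.02% of all genes. Nampt, the rate-limiting enzyme of NAD salvage, stood at 42.1, 29.8, 55.6 and 55.7 FPKM in the KOSH hearts and 21.8, 23.7, 12.8 and 10.1 FPKM in the KOTAC hearts. Nampt fell, with a log2 fold change of -1.41 (SE 0.21, adjusted p = 9.02e-07), or -0.94 from hearts 1 and 2 (adjusted p = 0.00428). Nnt, the mitochondrial transhydrogenase, was at 157, 152, 167 and 157 FPKM in the KOSH hearts and 98.7, 113, 70.4 and 52.1 FPKM in the KOTAC hearts. Nnt fell, with a log2 fold change of -0.97 (SE 0.15, adjusted p = 1.35e-06), or -0.58 from hearts 1 and 2 (adjusted p = 0.00682). Nnmt, which methylates nicotinamide, measured 1.10, 1.28, 1.45 and 1.28 FPKM in the KOSH hearts and 3.12, 3.75, 7.34 and 8.56 FPKM in the KOTAC hearts. Nnmt rose, with a log2 fold change of 1.47 (SE 0.22, adjusted p = 1.56e-06), or 0.96 from hearts 1 and 2 (adjusted p = 0.00672). Of 25 genes of the ATF4 stress response and mitokines, 10 rose and 3 fell, and 4 rose without hearts 3 and 4. Gdf15, a cytokine that stressed tissues secrete, stood at 0.678, 2.40, 0.863 and 1.10 FPKM in the KOSH hearts and 9.53, 7.96, 7.53 and 6.76 FPKM in the KOTAC hearts. Gdf15 rose, with a log2 fold change of 2.03 (SE 0.54, adjusted p = 0.00233), or 2.16 from hearts 1 and 2 (adjusted p = 0.0226). Nupr1, a stress-induced chromatin protein, was at 2.32, 2.46, 2.12 and 2.17 FPKM in the KOSH hearts and 11.3, 12.0, 22.4 and 30.02 FPKM in the KOTAC hearts. Nupr1 rose, with a log2 fold change of 2.50 (SE 0.42, adjusted p = 7.82e-06), or 1.95 from hearts 1 and 2 (adjusted p = 0.00678). Mthfd2, a mitochondrial folate enzyme, measured 0.756, 7.92, 1.04 and 2.27 FPKM in the KOSH hearts and 3.76, 4.16, 4.37 and 2.74 FPKM in the KOTAC hearts, with the groups overlapping (log2 fold change 0.56, SE 0.33, adjusted p = 0.162, or 0.63 from hearts 1 and 2, adjusted p = 0.312), and KOSH heart 2 held its highest value.

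Markers of fibroblasts, macrophages and endothelium were higher in KOTAC and moved with the pairs of hearts, and their part in the results above was not tested. The summed level of 12 fibroblast markers was 413 to 461 FPKM in KOSH hearts and 1157, 1245, 1448 and 1678 FPKM in KOTAC hearts. Of these, 11 rose, and 9 rose without hearts 3 and 4. The list shares collagens and Mfap5 with the matrix lists. The 18 macrophage and monocyte markers summed to 156 to 174 FPKM in KOSH hearts and 274, 308, 450.3 and 492 FPKM in KOTAC hearts. With all hearts 16 rose, against 5 without hearts 3 and 4. Cd68, a lysosomal protein of macrophages, stood at 4.86, 4.67, 3.00 and 3.62 FPKM in the KOSH hearts and 7.93, 8.01, 10.8 and 15.4 FPKM in the KOTAC hearts. Cd68 rose, with a log2 fold change of 1.17 (SE 0.22, adjusted p = 5.03e-05), or 0.85 from hearts 1 and 2 (adjusted p = 0.0221). Fcgr1, a high-affinity antibody receptor, was at 0.572, 0.915, 0.532 and 0.538 FPKM in the KOSH hearts and 2.19, 2.51, 1.74 and 2.14 FPKM in the KOTAC hearts. Fcgr1 rose, with a log2 fold change of 0.94 (SE 0.19, adjusted p = 0.000124), or 1.03 from hearts 1 and 2 (adjusted p = 0.00234). The 11 endothelial markers summed to 298 to 346 FPKM in KOSH hearts and 401, 412, 653 and 753 FPKM in KOTAC hearts, and 9 rose with all hearts. Without hearts 3 and 4, 1 rose, Pecam1. Pecam1 measured 36.1, 36.5, 37.5 and 34.1 FPKM in the KOSH hearts and 51.2, 51.3, 67.7 and 79.5 FPKM in the KOTAC hearts. Pecam1 rose, with a log2 fold change of 0.75 (SE 0.12, adjusted p = 5.51e-06), or 0.50 from hearts 1 and 2 (adjusted p = 0.0117). Egfl7, a secreted endothelial factor, stood at 59.5, 60.1, 54.9 and 51.6 FPKM in the KOSH hearts and 68.2, 78.5, 158 and 193 FPKM in the KOTAC hearts, with most of its rise in hearts 3 and 4. Egfl7 rose, with a log2 fold change of 0.99 (SE 0.23, adjusted p = 0.000438), or 0.37 from hearts 1 and 2 (adjusted p = 0.306).

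Erythroid markers (hemoglobin chains, Alas2 and others, 7 in the table) summed to 1861 to 2222 FPKM in KOSH hearts and 1640, 1674, 7183 and 6240 FPKM in KOTAC hearts, so that hearts 3 and 4 stood apart from the other 6 hearts. None of the 5 members tested passed with all hearts or without hearts 3 and 4. With hearts 3 and 4 alone against KOSH, 5 were called higher. The median log2 fold change was 1.65 in that comparison and -0.34 from hearts 1 and 2. Neutrophil markers were low, at 0.420 to 3.59 FPKM in KOSH hearts and 7.16, 9.16, 18.2 and 16.4 FPKM in KOTAC hearts for the sum of 7. Of the 3 tested, 2 rose with all hearts, among them S100a8, a calcium-binding protein of neutrophils and monocytes, at 0.709, 1.13, 0.114 and 0.150 FPKM in the KOSH hearts and 3.41, 5.38, 8.35 and 5.97 FPKM in the KOTAC hearts. S100a8 rose, with a log2 fold change of 2.16 (SE 0.43, adjusted p = 9.84e-05), or 1.85 from hearts 1 and 2 (adjusted p = 0.0135). Lung and thymus markers had no member that reached the filter, and Sftpa1, Sftpc, Scgb1a1, Rag1, Rag2 and Dntt were listed at 0 in all 8 hearts. The 8 markers of ventricular myocytes summed to 31510 to 35230 FPKM in KOSH hearts and 23100, 25800, 35960 and 29730 FPKM in KOTAC hearts. With all hearts 0 rose and 2 fell, namely Pln and the calcium release channel Ryr2 (log2 fold change -1.12, adjusted p = 0.000865, or -0.30 from hearts 1 and 2, adjusted p = 0.495). The median of these markers was -0.22, or -0.40 from hearts 1 and 2 and -0.61 after quantile normalization. Myl7, an atrial myosin light chain, was at most 0.804 FPKM. Of 30 cell cycle genes, 22 rose and 1 fell, and 7 rose without hearts 3 and 4. Mcm6, a subunit of the replicative helicase, was at 1.85, 1.85, 2.11 and 2.04 FPKM in the KOSH hearts and 3.65, 4.33, 4.99 and 5.60 FPKM in the KOTAC hearts. Mcm6 rose, with a log2 fold change of 0.92 (SE 0.12, adjusted p = 1.35e-07), or 0.75 from hearts 1 and 2 (adjusted p = 0.000458). Tyms, thymidylate synthase, measured 0.637, 0.590, 0.859 and 0.416 FPKM in the KOSH hearts and 1.52, 2.67, 4.48 and 4.49 FPKM in the KOTAC hearts. Tyms rose, with a log2 fold change of 1.34 (SE 0.20, adjusted p = 1.48e-06), or 0.91 from hearts 1 and 2 (adjusted p = 0.00554). Of 25 chemokine and cytokine genes, 16 rose and 1 fell, against 7 and 1 without those hearts. Ccl2, which attracts monocytes, stood at 0.964, 1.35, 0.368 and 0.639 FPKM in the KOSH hearts and 3.64, 3.64, 4.94 and 10.6 FPKM in the KOTAC hearts. Ccl2 rose, with a log2 fold change of 1.79 (SE 0.36, adjusted p = 0.000111), or 1.37 from hearts 1 and 2 (adjusted p = 0.0243).

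Clock genes differed between KOTAC and KOSH at week 2. In the circadian clock, ARNTL and CLOCK switch on the Per and Cry genes, whose proteins switch off ARNTL and CLOCK, and the PAR factors DBP, TEF and HLF carry the rhythm to other genes, in heart muscle as elsewhere. Arntl was at 0.648, 0.396, 0.389 and 0.305 FPKM in the KOSH hearts and 2.29, 2.70, 2.38 and 3.34 FPKM in the KOTAC hearts, a 6.16-fold higher mean, with a log2 fold change of 1.35 (SE 0.34, adjusted p = 0.00124), or 1.29 from hearts 1 and 2 (adjusted p = 0.0299). Npas2, a partner of ARNTL, measured 0.574, 0.394, 0.656 and 0.498 FPKM in the KOSH hearts and 1.44, 1.32, 0.699 and 0.935 FPKM in the KOTAC hearts. Npas2 rose, with a log2 fold change of 0.44 (SE 0.13, adjusted p = 0.00677), or 0.64 from hearts 1 and 2 (adjusted p = 0.00459). Lower values in KOTAC were found for Per and Cry genes and for the outputs Tef and Hlf. Per3 stood at 5.45, 4.51, 5.38 and 5.11 FPKM in the KOSH hearts and 1.73, 2.81, 2.06 and 1.83 FPKM in the KOTAC hearts. Per3 fell, with a log2 fold change of -0.99 (SE 0.22, adjusted p = 0.000326), or -0.92 from hearts 1 and 2 (adjusted p = 0.0156). Cry2 was at 9.95, 9.76, 10.1 and 9.36 FPKM in the KOSH hearts and 6.20, 5.59, 3.91 and 3.97 FPKM in the KOTAC hearts. Cry2 fell, with a log2 fold change of -0.89 (SE 0.15, adjusted p = 7.24e-06), or -0.65 from hearts 1 and 2 (adjusted p = 0.00919). Cry1 measured 3.50, 3.99, 4.25 and 4.35 FPKM in the KOSH hearts and 3.01, 2.33, 2.42 and 1.96 FPKM in the KOTAC hearts. Cry1 fell, with a log2 fold change of -0.56 (SE 0.14, adjusted p = 0.00114), or -0.46 from hearts 1 and 2 (adjusted p = 0.0577). Tef stood at 53.2, 46.3, 58.2 and 60.6 FPKM in the KOSH hearts and 26.4, 29.4, 21.2 and 17.9 FPKM in the KOTAC hearts. Tef fell, with a log2 fold change of -1.19 (SE 0.20, adjusted p = 6.22e-06), or -0.94 from hearts 1 and 2 (adjusted p = 0.00547). Hlf was at 8.83, 7.33, 7.73 and 9.46 FPKM in the KOSH hearts and 2.11, 2.92, 1.54 and 1.27 FPKM in the KOTAC hearts. Hlf fell, with a log2 fold change of -1.69 (SE 0.24, adjusted p = 6.27e-07), or -1.42 from hearts 1 and 2 (adjusted p = 0.000968). For all of these genes, from Arntl to Hlf, the 4 KOTAC values did not overlap the 4 KOSH values. Over all genes, 20.3% lay above in this way and 9.92% below. Of 18 clock genes tested, 4 rose and 10 fell with all hearts, and 4 rose and 4 fell without hearts 3 and 4. Repressors were not all lower, since Bhlhe40, which encodes a repressor of ARNTL and CLOCK, rose (log2 fold change 0.93, adjusted p = 0.00209, or 0.98 from hearts 1 and 2, adjusted p = 0.0205). Of the others, Per2 fell by 0.84 and Nr1d2 by 0.76 with all hearts, and neither passed without hearts 3 and 4. The median over the list was -0.60 at week 2, or -0.32 without hearts 3 and 4, against 0.11, 0.16 and 0.35 in knockout hearts of weeks 1, 4 and 8. In wild-type hearts of week 2 it was -0.59.

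Sham hearts themselves fell into pairs for other clock genes. Nr1d1, a repressor of Arntl, measured 28.8, 28.2, 9.06 and 8.34 FPKM in the KOSH hearts and 39.8, 40.1, 23.1 and 30.9 FPKM in the KOTAC hearts, so that KOSH hearts 1 and 2 lay within the range of the KOTAC hearts and KOSH hearts 3 and 4 were the lowest. It passed with all hearts (0.99, adjusted p = 0.0322) but not without hearts 3 and 4 (1.28, adjusted p = 0.0572). Dbp stood at 74.7, 76.9, 43.2 and 47.1 FPKM in the KOSH hearts and 27.7, 40.1, 37.8 and 43.4 FPKM in the KOTAC hearts, again with KOSH hearts 1 and 2 apart from hearts 3 and 4, and did not pass the test. Dbp did not pass the test, with a log2 fold change of -0.66 (SE 0.34, adjusted p = 0.114), or -0.79 from hearts 1 and 2 (adjusted p = 0.211). The hour at which each heart was taken is not given in the sources used here, so that its part cannot be told apart from that of the surgery. In weeks 1 and 4 Arntl had the higher mean in KOSH. Arntl was 1.95 ± 0.940 FPKM in KOSH and 1.27 ± 0.460 in KOTAC at week 1, 2.37 ± 1.18 and 0.702 ± 0.232 at week 4, and 0.895 ± 1.12 and 2.13 ± 1.05 at week 8 (SD, n = 4). In wild-type hearts of week 2 it was 0.398 ± 0.0457 FPKM in WTSH and 5.39 ± 2.35 in WTTAC. The TAC effect on Cry2 in the knockout at week 2 differed from that at week 1 by -1.07 (SE 0.21, adjusted p = 0.012), at week 4 by -1.02 (SE 0.21, adjusted p = 0.00769) and at week 8 by -0.96 (SE 0.21, adjusted p = 0.00657). For Tef the differences were -1.14 (SE 0.28, adjusted p = 0.0461), -1.43 (SE 0.28, adjusted p = 0.00561) and -0.93 (SE 0.28, adjusted p = 0.0315). None of these 6 passed without the length-biased libraries (adjusted p of 0.0765 to 0.281).

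**Figure D5:**
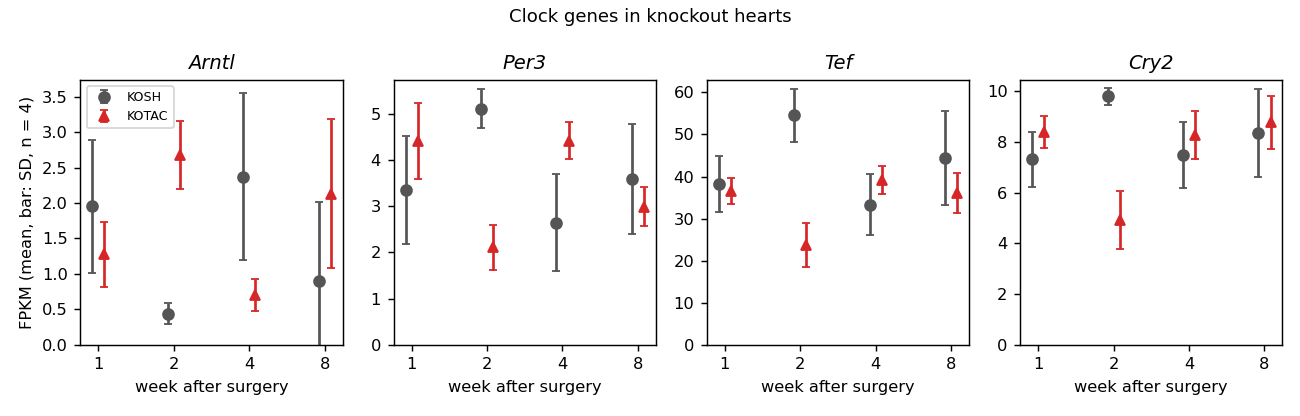
FPKM of 4 clock genes in KOSH (grey circles) and KOTAC (red triangles) hearts at weeks 1, 2, 4 and 8, as the mean of 4 hearts with the SD as a bar. At week 2 Arntl is higher in KOTAC (2.68 ± 0.477 vs. 0.435 ± 0.148 FPKM), and Per3, Tef and Cry2 are lower.

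The promoters of 3 of the genes that fell are shown because they hold binding motifs of the clock itself. They are the 250 bases before the RefSeq start (GRCm38.p6) on the strand of the gene, with the motif in capitals: the E-box CACGTG, to which ARNTL and CLOCK bind, in Tef (chr15:81802423-81802672, plus strand) and Cry1 (chr10:85185055-85185304, minus strand), and the D-box TTATGTAA, to which the PAR factors bind, in Per3 (chr4:151044666-151044915, minus strand). Both strands were searched.
Tef: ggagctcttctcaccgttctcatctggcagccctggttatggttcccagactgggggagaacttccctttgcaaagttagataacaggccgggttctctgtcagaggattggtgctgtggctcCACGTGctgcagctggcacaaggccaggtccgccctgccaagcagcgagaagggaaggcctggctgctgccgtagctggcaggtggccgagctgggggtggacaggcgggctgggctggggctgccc
Cry1: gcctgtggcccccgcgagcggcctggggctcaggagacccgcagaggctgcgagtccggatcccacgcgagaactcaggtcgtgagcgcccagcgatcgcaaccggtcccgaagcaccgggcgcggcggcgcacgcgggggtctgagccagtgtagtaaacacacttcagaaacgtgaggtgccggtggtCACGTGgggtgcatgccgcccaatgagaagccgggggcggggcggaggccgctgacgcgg
Per3: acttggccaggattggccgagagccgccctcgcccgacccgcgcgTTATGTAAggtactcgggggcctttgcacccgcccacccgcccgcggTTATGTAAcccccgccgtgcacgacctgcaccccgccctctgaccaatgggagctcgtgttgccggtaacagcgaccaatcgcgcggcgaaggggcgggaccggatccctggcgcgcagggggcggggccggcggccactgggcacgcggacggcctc
The E-box was in the window of 4 of the 15 clock genes that matched by symbol (of 18 listed), namely Per1, Cry1, Tef and Bhlhe41, and of 6.86% of all genes with a window. The D-box was in 1 of them, Per3, which holds 2 copies, and in 0.977% of all genes. Hlf and Cry2, which also fell, were not among the genes with either motif. The motif AGGTCA (ROR element) was searched too, and was in 4 of the 15 (Clock, Per1, Nr1d2 and Nfil3) and in 15.8% of all genes. These matches describe the letters and are not evidence of binding.

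No gene passed the test of a difference between the genotypes. The TAC effect differed between knockout and wild-type hearts for 0 of 13653 genes (0%) at an adjusted p under 0.05 from limma, and for 918 at an unadjusted p under 0.05. The test without the 4 length-biased libraries called 1 gene, Gm20620, and array weights called 5. The log2 fold change of Postn was 4.63 in the knockout and 3.22 in the wild type, with a difference of 1.41 (SE 0.75, adjusted p = 0.769). For Nppa the values were 3.96 and 2.45, with a difference of 1.51 (SE 0.94, adjusted p = 0.793), and for Thbs4 they were 4.05 and 2.69, with a difference of 1.35 (SE 0.85, adjusted p = 0.793). Among the smallest p values was that of Ccrl1, an atypical chemokine receptor, which was at 1.75, 2.82, 2.40 and 2.51 FPKM in the KOSH hearts and 5.26, 7.48, 10.2 and 8.68 FPKM in the KOTAC hearts. The log2 fold change was 1.38 in the knockout and 0.04 in the wild type, a difference of 1.34 (SE 0.33, adjusted p = 0.417). Lbp, a protein that binds bacterial lipopolysaccharide, measured 1.67, 1.84, 1.80 and 2.00 FPKM in the KOSH hearts and 6.91, 6.71, 9.36 and 8.96 FPKM in the KOTAC hearts, with 1.66 and 0.93 and a difference of 0.72 (SE 0.26, adjusted p = 0.561). WTTAC hearts 3 and 4 carry the same length trend as KOTAC hearts 3 and 4. A p that misses the threshold does not show that the genotypes respond alike.

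Between weeks, the TAC effect in the knockout was higher at week 2 than at week 1 for 6 genes (0.0439%) and lower for 46 (0.337%), and higher than at week 4 for 81 (0.593%) and lower for 96 (0.703%). Against week 8 it was higher for 87 (0.637%) and lower for 1199 (8.78%). Scaling moved the totals, from 177 genes to 356 (median-of-ratios) and 354 (quantile) for week 4 and from 1286 to 371 and 367 for week 8. Without the 4 length-biased libraries the counts of higher and lower genes were 0 and 0, 4 and 0, and 6 and 31. Leaving out KOTAC heart 4 of week 2 alone left 1, 27 and 104 genes for the 3 weeks in that order. A difference from week 4 held for Col5a3, whose log2 fold change was 2.24 at week 2 and -0.03 at week 4 (difference 2.27, SE 0.35, adjusted p = 0.00047, or 2.33 with an adjusted p of 0.00344 without the biased libraries). It also held for Steap4, a metalloreductase, with a difference of 0.96, or 1.15 (adjusted p = 0.00586), and for Msr1, a macrophage scavenger receptor, with 1.27, or 1.501 (adjusted p = 0.018). Steap4 and Msr1 were chosen after their values were seen. From week 8 differed Cmpk2, an interferon-induced mitochondrial kinase, which stood at 2.19, 2.31, 2.47 and 2.42 FPKM in the KOSH hearts and 4.61, 4.81, 3.196 and 4.08 FPKM in the KOTAC hearts. Its TAC effect was 0.62 at week 2 and -0.14 at week 8 (difference 0.75, SE 0.16, adjusted p = 0.00518, or 0.91 with an adjusted p of 0.0126). Rtp4, another interferon-induced gene, showed 1.05 and 0.05 (difference 1.002, SE 0.21, adjusted p = 0.00536, or 0.98 with an adjusted p of 0.0439). Amotl2, an angiomotin-like protein of cell junctions, fell at week 2 (17.4, 15.1, 18.6 and 15.7 FPKM in the KOSH hearts and 12.3, 11.0, 9.06 and 8.86 FPKM in the KOTAC hearts) with an effect of -0.65, against 0.56 at week 8 (difference -1.21, SE 0.17, adjusted p = 2.96e-05, or -1.04 with an adjusted p of 0.01). Idh3g, named above, also held its difference (-0.46, or -0.49 with an adjusted p of 0.0401), but not after median-of-ratios scaling (adjusted p = 0.165). The fold change of Nppa was 3.82 at week 1, 3.96 at week 2, 3.81 at week 4 and 5.29 at week 8, and that of Postn 4.50, 4.63, 3.46 and 4.62, with no difference of week 2 from another week that passed the test.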

How the data were processed

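Total RNA of frozen cardiac tissue was sequenced as paired-end reads of 50 bases from 64 hearts, 4 in each of 16 groups of genotype, surgery and week. Per the labels and the methods of the study, the authors used FastQC for read quality, TopHat to align to mm9 and Cufflinks with Ensembl 66 to estimate expression. Reads that mapped to 1 place with under 2 mismatches were used. The sources used here give no tool versions. Deposited values are FPKM per gene, which carry no counts, so the depth per library and the counting error are unknown, and an exact 0 can be a failed estimate.

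Genes with at least 1 FPKM in at least 4 libraries (13653 of 30285 entries) were tested on log2(FPKM + 1) with limma 3.58.1 (R 4.3.3, empirical Bayes with a trend). The 16 group means were fitted over all 64 hearts, which share 1 estimate of the spread, and p-values were adjusted by Benjamini-Hochberg over all genes tested. A fold change on this scale understates the change of low genes. Differences between genotypes and weeks were contrasts of the same fit. Each library is 1 heart, and p-values measure the spread between hearts. Same-numbered KOSH and KOTAC hearts were checked for shared deviations and were not treated as pairs. Transcript lengths and gene positions came from a GENCODE annotation of mm9 (Ensembl 65), with a length for 86.5% of genes tested.

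The members and the gene lists were chosen with earlier results of these data known. Genes named were Ndufs4, the 12 largest rises and 12 largest falls called with and without KOTAC hearts 3 and 4 with groups not overlapping, the strongest members of each list, the smallest p values of each difference between genotypes or weeks, and a few reference genes. Any other gene named was chosen after its values were seen. 1 of the genes that this rule selects is not reported here. In the table, 25 entries carry dates in place of gene names. Alternatives were other pseudocounts, filters, scalings, tests, weights and sets of hearts, and removal of the length trend.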

Additional observations from a re-analysis of the deposited data

Results flagged for a closer look

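Among 100 genes described here, 200 groups of 4 hearts were examined for a heart far from the others of its group by the size of the gap relative to the range of the group, and 9 had one, close to the 1 in 20 that chance gives. They were Xirp2 (488 FPKM in KOTAC heart 2), Col15a1 (139.7 FPKM in KOTAC heart 4), Mfap5 (8.73 FPKM in KOSH heart 3), Mfap4 (6.68 FPKM in KOSH heart 4), Serpina3n (19.3 FPKM in KOTAC heart 2), Ces1d (18.3 FPKM in KOSH heart 2), Mylk4 (48.0 FPKM in KOSH heart 4), Atp2a2 (2023 FPKM in KOSH heart 1) and Fcgr1 (0.915 FPKM in KOSH heart 2). KOSH heart 2 was the one apart for Ces1d and Fcgr1.

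The TAC effect in the knockout differed between week 2 and week 1 by an interaction contrast of limma (adjusted p under 0.05), with the log2 difference in parentheses, for Per3 (-1.32), Tef (-1.14), Cry2 (-1.07) and Cry1 (-0.80).

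The TAC effect in the knockout differed between week 2 and week 4 by an interaction contrast of limma (adjusted p under 0.05), with the log2 difference in parentheses, for Col5a3 (2.27), Col4a1 (1.30), Mylk4 (-1.84), Slc27a1 (-0.93), Pnpla2 (-0.71), Kcnj5 (-1.12), Arntl (2.29), Per3 (-1.60), Tef (-1.43), Hlf (-1.65), Cry2 (-1.02), Cry1 (-1.01), Ccl2 (2.37), Rhoj (1.44) and Pde9a (1.26).

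The TAC effect in the knockout differed between week 2 and week 8 by an interaction contrast of limma (adjusted p under 0.05), with the log2 difference in parentheses, for Myh7 (-1.64), Col5a3 (1.35), Col15a1 (1.33), Slc27a1 (-1.15), Pnpla2 (-0.96), Acadm (-0.71), Ivd (-1.12), Idh3g (-0.46), Nnt (-0.72), Gdf15 (-2.28), Tef (-0.93), Cry2 (-0.96), Cry1 (-0.69), Cmpk2 (0.75), Rtp4 (1.002) and Amotl2 (-1.21).

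Of the differences listed here, those of Col5a3 from week 4 and of Idh3g, Cmpk2, Rtp4 and Amotl2 from week 8 also passed without the 4 length-biased libraries. Over the 18 genes of the clock list, the contrast called 4 lower and 0 higher against week 1, 7 and 1 against week 4 and 7 and 0 against week 8, beside 52, 177 and 1286 calls in all over 13653 genes.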

How the results depend on the processing

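The number of genes called depended on the hearts used. Against 3353 higher and 2442 lower genes with all hearts, KOTAC vs. KOSH gave 1496 and 549 without KOTAC hearts 3 and 4, 1985 and 754 without these and WTTAC hearts 3 and 4, and 528 and 269 at a fold change of at least 2. Added after seeing the data, the comparison without hearts 3 and 4 gave 1301 and 1034 with median-of-ratios scaling and 1116 and 1184 with quantile normalization, and that without KOTAC hearts 1 and 2 gave 4011 lower. Lower genes numbered 1396 with array weights, 863 in a fit of the 8 hearts and 1057 in a fit of the 16 hearts of week 2. With the replicate number as a block, the 8 hearts gave 1524 higher and 566 lower. Same-numbered hearts deviated with a correlation of -0.19 to 0.2, so that the numbers were not read as pairs. Leaving out 1 heart at a time gave 2356 to 3693 higher and 1274 to 3144 lower, with 1526 lower without KOTAC heart 3 and 1274 without heart 4. The cause of these changes was not tested.

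The difference between genotypes gave 1 gene without the 4 length-biased libraries, 5 with array weights and 0 to 1 with 1 heart left out. For the differences from weeks 1, 4 and 8 (52, 177 and 1286 genes called), the counts were 0, 4 and 37 without the 4 length-biased libraries and 27, 84 and 778 with no filter. Median-of-ratios scaling gave 356 and 371 for weeks 4 and 8, quantile normalization 354 and 367, and array weights 692 for week 1. With 1 heart left out the counts ranged from 0 to 1731, from 27 to 1466 and from 104 to 3146. The lowest came without KOTAC heart 3 of week 1 for the first and without KOTAC heart 4 of week 2 for the others, and the highest without KOTAC heart 2 of week 2.

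Some single genes turned sign. The log2 fold change of Ppargc1a became 0.10 without KOTAC hearts 3 and 4. Ndufb3 became -0.02 (quantile normalization) and -0.12 (median-of-ratios scaling) and Cox6a1 -0.023 (median-of-ratios scaling) without those hearts. Without KOTAC hearts 1 and 2, Ndufs4 became 0.29 and Ndufv1 0.016. With 1 heart left out, Ndufs4, which did not pass the test, ranged from -0.24 to 0.12, above 0 without KOTAC heart 1 (0.12), KOSH heart 1 (0.025) or KOSH heart 3 (0.039). Myh7, which did not pass either, ranged from -0.32 to 0.052, above 0 without KOTAC heart 1. Of the 100 genes described, 99 kept their sign and call with median-of-ratios scaling, 100 with a pseudocount of 0.1 and 99 with the length trend removed. The number was 88 without KOTAC hearts 3 and 4 and 86 with the replicate block. Many of these genes were chosen by their result without KOTAC hearts 3 and 4, so the 88 was partly set by that choice. Over all genes, 1300 of 3353 called rises and 500 of 2442 called falls were also called without those hearts.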

Other observations

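Genes of neurohormone signalling were not described above. Of 27 receptors, ligands and phosphodiesterases tested, 7 rose and 7 fell, beside 24.6% and 17.9% of all genes. Leaving out KOTAC hearts 3 and 4, 4 rose and 4 fell, beside 11% and 4.02% of all genes. Ace, the angiotensin-converting enzyme, stood at 12.0, 14.2, 12.3 and 14.6 FPKM in the KOSH hearts and 43.0, 38.3, 35.4 and 39.0 FPKM in the KOTAC hearts. Ace rose, with a log2 fold change of 1.49 (SE 0.22, adjusted p = 1.1e-06), or 1.55 from hearts 1 and 2 (adjusted p = 0.000156). Agtr1a, the receptor of angiotensin II, stood at 20.8, 17.9, 15.3 and 15.6 FPKM in the KOSH hearts and 10.2, 10.7, 7.64 and 6.41 FPKM in the KOTAC hearts. Agtr1a fell, with a log2 fold change of -0.93 (SE 0.16, adjusted p = 8.7e-06), or -0.68 from hearts 1 and 2 (adjusted p = 0.0103). The enzyme was thus higher and the receptor lower in every KOTAC heart than in any KOSH heart. Pde9a, a phosphodiesterase specific for cGMP, the second messenger of natriuretic peptides, stood at 1.98, 1.27, 1.91 and 1.35 FPKM in the KOSH hearts and 4.37, 4.06, 4.06 and 5.98 FPKM in the KOTAC hearts (log2 fold change 1.09, SE 0.16, adjusted p = 8.42e-07, or 1.0 from hearts 1 and 2, adjusted p = 0.000454), again with no overlap. Rhoj, a small GTPase of endothelial cells, stood at 9.45, 9.93, 10.4 and 8.88 FPKM in the KOSH hearts and 34.7, 21.8, 28.1 and 29.1 FPKM in the KOTAC hearts. Rhoj rose, with a log2 fold change of 1.45 (SE 0.19, adjusted p = 1.12e-07), or 1.42 from hearts 1 and 2 (adjusted p = 7.28e-05). Of 18 genes of coagulation and fibrinolysis, 10 rose and 3 fell, against 8 and 2 without hearts 3 and 4.
Over all genes, 24.6% rose and 17.9% fell with all hearts, and 11% and 4.02% did so without KOTAC hearts 3 and 4. The remaining lists are given by the numbers that rose and fell with all hearts and then without KOTAC hearts 3 and 4. They were the adult sarcomere (2 and 5 of 23, against 1 and 2), creatine kinase energy transfer (3 and 3 of 12, against 1 and 1), antioxidant defence and NADPH oxidases (10 and 4 of 29, against 5 and 1), VEGF and angiopoietin signalling (8 and 2 of 18, against 3 and 2), immediate early and glucocorticoid genes (9 and 0 of 24, against 2 and 0) and cardiac and fibroblast transcription factors (6 and 5 of 23, against 3 and 1). Among cell markers, those of smooth muscle and pericytes (7 and 0 of 11, against 4 and 0) rose in part. The counts were also taken for skeletal muscle (0 and 2 of 6, against 0 and 2), lymphocytes (1 and 0 of 4, against 0 and 0), adipocytes (0 and 0 of 1, against 0 and 0) and Schwann cells (0 and 0 of 3, against 0 and 0). The skeletal muscle markers summed to 4.94 to 39.7 FPKM in KOSH hearts and 4.03 to 4.72 FPKM in KOTAC hearts, so that the sham hearts were spread widely.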
